A study of Mus musculus with 8 samples.

Results

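Accessibility was examined at the peaks around Macroh2a1 and Macroh2a2, the genes of the histone variant macroH2A, in mouse embryonic stem cells. A peak was taken when its centre lay inside the RefSeq span of either gene or within 50 kb of it, which gave 44 of the 134407 peaks in the deposited table, 21 around Macroh2a1 and 23 around Macroh2a2. The pair was chosen by measured values: a peak inside Macroh2a2 was already known, from these libraries, to be among the largest rises in paused cells. The values around Macroh2a2 are therefore given as a description, with no p-value printed. Peaks around Macroh2a2 that pass the threshold of the fit over all peaks are counted as description and not as support. Macroh2a1 was taken as its paralogue and not for its own values, so tests are given there. Earlier results of these data were known when the genes were chosen, which limits how far those tests can be read.

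Open chromatin was profiled by ATAC-seq, a method that marks accessible DNA by letting a transposase insert adapters into it. All cells were of the wild-type E14 line, grown on gelatin in serum with LIF, and each library was made from 50000 live cells. The control group had 4 libraries with no inhibitor, and the paused group had 4 libraries from cultures given INK128, which blocks the kinase mTOR, at 200 nM for 24 h. The labels do not say whether replicates came from separate cultures, so p-values measure only the spread between these samples, and a single cell line was used.

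Depth, as reads in peaks per library, lay between 4434037 and 21161767 and was highest in control replicate 1. The scaled values are reads per peak divided by 1 factor per library and are called values below. All 7 embryonic stem cell marker genes examined had a peak within 2 kb of a gene end, and the strongest such peak at each gene had a mean value between 37.8 and 344. Such peaks were also present at 3 of 4 endoderm, 3 of 3 mesoderm and 4 of 5 fibroblast genes, where the strongest at each gene with one had a mean value between 42.9 and 216, so that this readout does not separate the cell types by presence of a peak alone.

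MacroH2A is a form of histone H2A that carries a large globular macrodomain on a linker behind the histone fold. It is best known for its enrichment on the inactive X chromosome and in other silent chromatin, and for making differentiated nuclei harder to reprogram. Macroh2a1 is spliced into forms of which one binds ADP-ribose, whereas the macrodomain of Macroh2a2 does not. In pluripotent cells macroH2A is generally low and it builds up during differentiation.

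In the RefSeq annotation of GRCm38.p6, both genes lie on the minus strand. Macroh2a2 (gene 404634, also called H2afy2) spans chr10:61738640-61784604 with a start site at 61783864. Macroh2a1 (gene 26914, also called H2afy) spans chr13:56073622-56135626 with a start site at 56135550. Distances below are from these start sites to the centre of a peak, and peaks are named by them. Whether a peak inside a gene lies in an exon or an intron was not analysed here.

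The promoter windows of both genes are printed because each gene has a peak centred within 1 kb of its start site, called its start-site peak below. They run from 250 bases before to 50 bases after the start site, 5′ to 3′ on the minus strand, at chr13:56135501-56135800 for Macroh2a1 and chr10:61783815-61784114 for Macroh2a2 (RefSeq, GRCm38.p6, found for 2 of 2 genes). Capitals mark the matches found to the GC box (GGGCGG), the CCAAT box (CCAAT), the TATA box (TATAAA) and the palindromic E-box (CACGTG), searched on both strands.
Macroh2a1: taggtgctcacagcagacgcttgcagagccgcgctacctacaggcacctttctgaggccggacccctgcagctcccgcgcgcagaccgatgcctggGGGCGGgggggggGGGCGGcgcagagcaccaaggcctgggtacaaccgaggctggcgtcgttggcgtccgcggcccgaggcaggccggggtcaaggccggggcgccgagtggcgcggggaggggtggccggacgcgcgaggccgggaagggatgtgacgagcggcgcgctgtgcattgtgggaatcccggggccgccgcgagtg
Macroh2a2: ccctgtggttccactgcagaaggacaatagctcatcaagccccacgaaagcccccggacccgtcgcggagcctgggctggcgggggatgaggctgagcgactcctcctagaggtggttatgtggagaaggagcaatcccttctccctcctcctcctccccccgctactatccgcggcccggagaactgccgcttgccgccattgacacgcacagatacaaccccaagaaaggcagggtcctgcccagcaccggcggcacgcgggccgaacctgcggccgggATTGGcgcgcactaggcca
The Macroh2a1 window held 2 matches to the GC box, beginning at bases -154 and -141 from the start site, and none to the other motifs. The Macroh2a2 window held 1 match to the CCAAT box, on the opposite strand at base 32 after the start, and none to the others. No match overlapped another. Of all 32851 promoter windows of this length, 35.7% held a GC box, 37.4% a CCAAT box, 13.6% a TATA box and 7.15% an E-box. The Macroh2a1 window was 74.3% G and C with 37 CpG dinucleotides, and the Macroh2a2 window 65.7% with 23. Both are above the medians of all windows, 52.7% and 7 CpG.

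Neither start-site peak separated the groups, and only that of Macroh2a1 overlapped its printed window. At Macroh2a1 the peak chr13:56135342-56135542, centred 108 bp after the start and overlapping the printed window by 42 bp, had values of 81.2, 127, 103 and 97.0 in the control libraries and 155, 112, 109 and 114 in the paused libraries. The groups overlapped, since control replicate 2 was above 3 of the 4 paused libraries. The means were 102 ± 18.8 and 122 ± 21.7 (SD, n = 4), a log2 change of 0.26 with SE 0.14 that did not pass (limma-trend adjusted p = 0.220). At Macroh2a2 the peak chr10:61783221-61783421 was centred 543 bp after the start, 393 bp from the printed window. It had values of 79.2, 88.4, 47.4 and 70.5 in control and 98.0, 71.0, 72.9 and 105 in paused libraries. Here too the groups overlapped, with means of 71.4 ± 17.6 and 86.9 ± 17.5 (SD, n = 4) and a log2 change of 0.29. This peak also lies inside Gm2137, a protein-coding gene that overlaps the first 2578 bp of Macroh2a2, and its signal cannot be assigned to either gene.

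Inside Macroh2a2 the difference between the groups sat mainly at 1 of 6 peaks, 33.6 kb after the start (chr10:61750149-61750349). Its values were 38.7, 25.1, 15.2 and 29.4 in the control libraries and 77.3, 93.1, 85.3 and 99.6 in the paused libraries. Every paused library lay above every control library. The means were 27.1 ± 9.75 and 88.8 ± 9.64 (SD, n = 4), 3.28 times as much, and the log2 change was 1.74. Recovered reads were 112, 21, 9 and 20 in control and 67, 59, 55 and 85 in paused libraries, so that control replicate 3 rests on few reads. In the authors' deposited table this peak has a log2 fold of 1.34 and ranks 28 by size of the rise among all peaks. The peak is inside Macroh2a2. The nearest gene end, at 10989 bp, is that of Aifm2, which encodes an oxidoreductase that protects cells from ferroptosis. Aifm2 overlaps the 3′ end of Macroh2a2 by 621 bp, so the ends of both genes lie close together there.

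**Figure D1:**
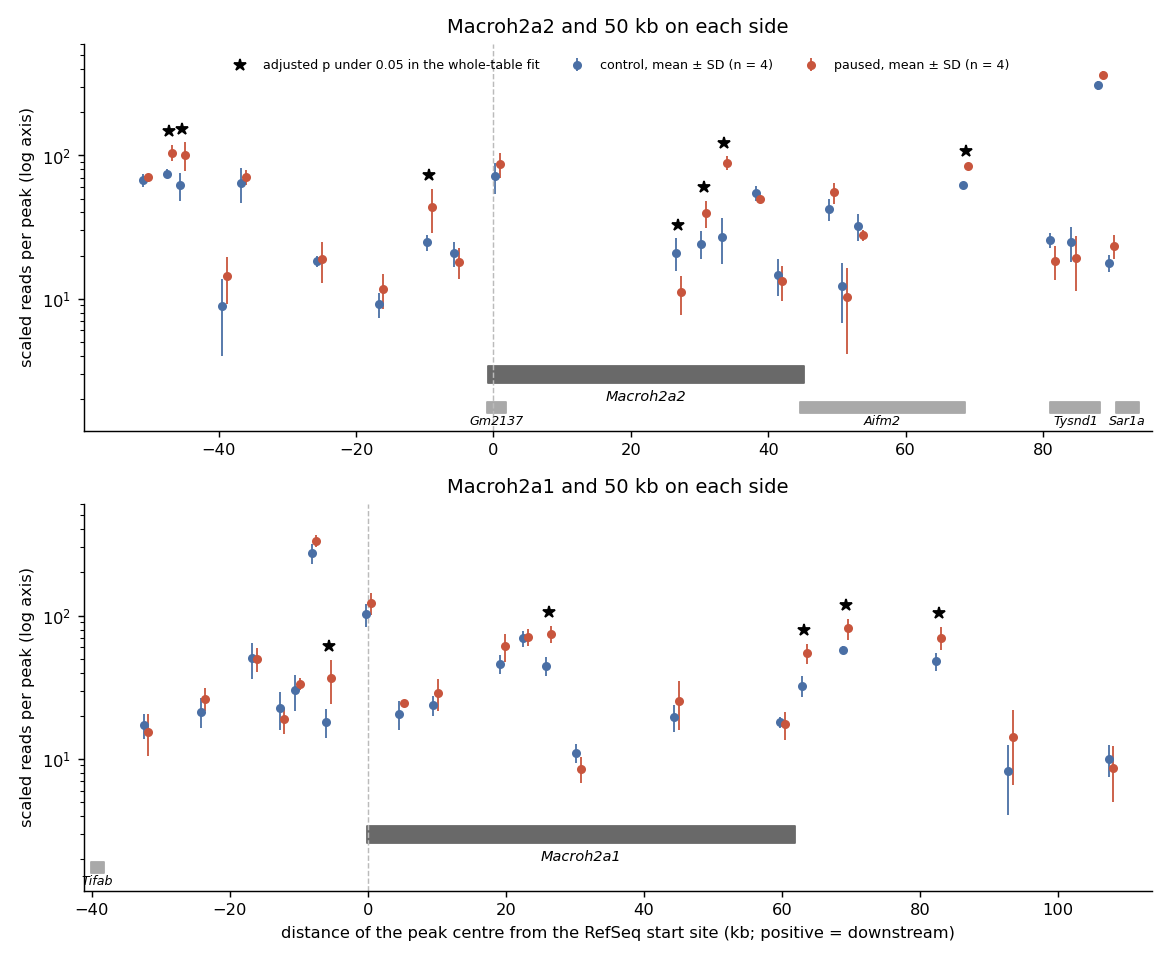
Mean value of each peak (log axis, scaled reads, bars are the SD of 4 libraries) against its distance from the RefSeq start site in kb, for control (blue) and paused (red) libraries. Dark grey bars are the spans of the 2 genes, light grey bars other protein-coding genes, and stars mark peaks with an adjusted p under 0.05 in the fit over all peaks. Around Macroh2a2, which was chosen for a rise in these libraries, the stars are a description only. The peak 33.6 kb inside Macroh2a2 goes from 27.1 to 88.8, and the error bars of the groups overlap at both start-site peaks.

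The neighbouring peaks inside Macroh2a2 did not all lie on the same side. The peak at 30.6 kb (chr10:61753170-61753370) had values of 30.4, 25.1, 23.7 and 17.6 in control and 51.9, 33.1, 35.7 and 37.5 in paused libraries, with a log2 change of 0.69 and no overlap between the groups. The peak at 26.9 kb (chr10:61756825-61757025) was weak and lower in paused libraries, at 16.1, 9.46, 9.31 and 9.37 against 23.9, 16.7, 27.1 and 16.2 in control, a log2 change of -0.87. The calls of both peaks were lost in DESeq2 and with loess scaling. The call at 30.6 kb was also lost in edgeR and with total-read scaling, and that at 26.9 kb with a pseudocount of 0.1. Leaving out control replicate 4 or paused replicate 1 or 4 lost the call at 30.6 kb. Leaving out control replicate 1, 2 or 3 or paused replicate 2, 3 or 4 lost that at 26.9 kb. In the authors' deposited table neither peak has an FDR under 0.05. The groups at the weaker peak all but touch, at 16.15 in paused replicate 1 and 16.16 in control replicate 4. The remaining peaks, at 38.5 kb and 41.7 kb, overlapped between the groups and had log2 changes of -0.14 and -0.12. No peak lay in the 26.4 kb between the start-site peak and the peak at 26.9 kb, a stretch that holds the microRNA gene Mir5108.

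**Figure D2:**
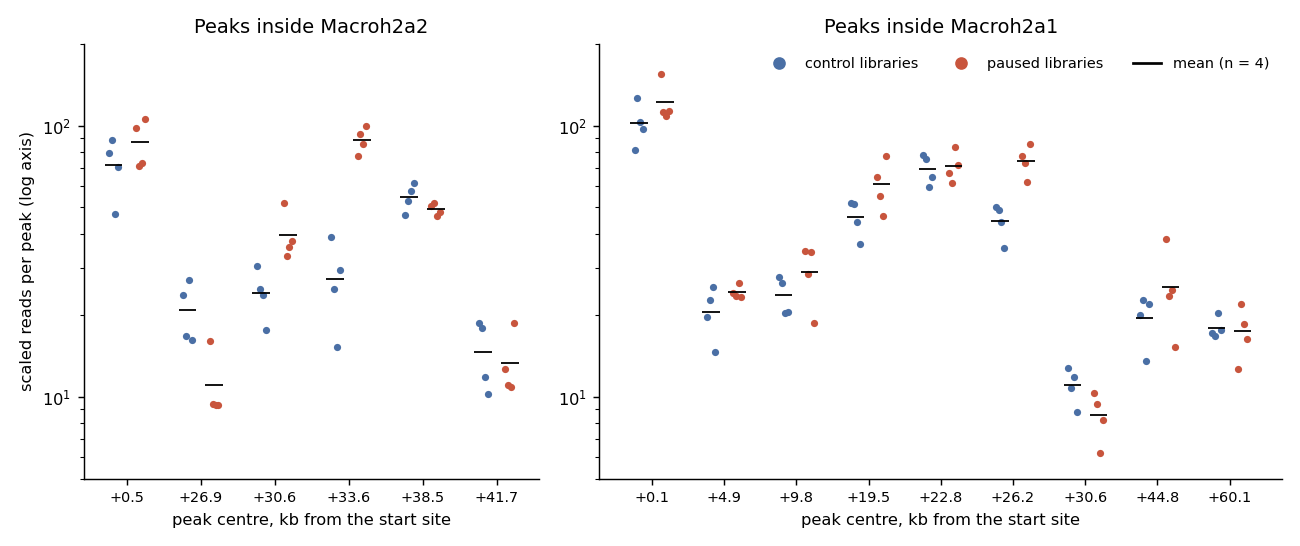
Value of every library (points, log axis, scaled reads) and the mean of 4 (line) at each peak inside the genes, ordered by distance from the start site in kb. At 33.6 kb in Macroh2a2 the paused libraries lie between 77.3 and 99.6 and the control libraries between 15.2 and 38.7. At 26.2 kb in Macroh2a1 they lie between 62.1 and 85.5 and between 35.3 and 50.1.

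All 23 peaks around Macroh2a2 had the mean value of at least 10 needed for the fit over all peaks, and 6 were called higher and 1 lower in paused libraries at an adjusted p under 0.05. That is 30.4% of them beside 13.9% of all 127402 tested peaks (11.0% higher and 2.91% lower), and nothing is read from it because the window was chosen for a rise in this contrast. Values of the 4 paused libraries lay above all 4 control libraries at 6 peaks and below them at 1. Over all tested peaks the groups did not overlap at 17.4%, 13.0% higher and 4.36% lower. An FDR under 0.05 is given in the authors' deposited table for 5 of the 23, each of them higher, beside 11.0% of its peaks as a whole (9.19% higher and 1.80% lower). The scaling decides part of this background: 79.0% of all calls were higher here, against 56.3% in edgeR with TMM, 67.3% in DESeq2, 45.7% after scaling to total reads in peaks and 59.3% after a loess correction.

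Most peaks in the flanks of Macroh2a2 belong by distance to other genes. Of all 23 peaks, inside and in the flanks, 19 were nearest to an end of another gene. These include every peak inside Macroh2a2 except the start-site peak, all nearest to Aifm2, whose end overlaps that of Macroh2a2. The flank peaks nearest to Macroh2a2, at 49.2 kb, 51.1 kb and 53.5 kb, have their centres inside Aifm2. The 2 Col13a1 peaks among the calls, at 45.3 kb and 47.2 kb upstream of Macroh2a2, went from 61.9 ± 14.1 to 101 ± 22.7 and from 74.8 ± 5.02 to 105 ± 13.1 (SD, n = 4). The groups overlapped at the first and not at the other. Both lie inside the long non-coding RNA gene Gm51765, and Col13a1 encodes a transmembrane collagen. The peak 149 bp from an end of Aifm2 (chr10:61715014-61715214) had values of 61.2, 60.9, 66.0 and 58.8 in control and 84.2, 82.0, 85.3 and 86.7 in paused libraries. Its spread was small in both groups, and the log2 change was 0.45. The largest change among the called flank peaks, 0.75, was 9.3 kb upstream of Macroh2a2 and nearest to Gm2137, where paused replicate 4 stood at 65.6 and the other paused libraries between 33.5 and 38.8. Without that library the log2 change was 0.54 and the call was lost, as it was in DESeq2 and with total-read scaling. The strongest peak of the window, 3 bp from an end of Tysnd1, had means of 310 ± 22.7 and 367 ± 24.8 (SD, n = 4) and was not called. The other 12 flank peaks of Macroh2a2 were not called and had log2 changes from -0.49 to 0.71.

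Around Macroh2a1, 19 of 21 peaks passed the filter on low values; 5 were called higher and 0 lower in limma-trend (26.3% called, beside 11.0% higher and 2.91% lower of all tested peaks). At an unadjusted p under 0.05 there were 7 higher and 0 lower in limma-trend, beside 21.1% and 7.61% of all tested peaks. edgeR called 3 higher and 0 lower, with 5 and 0 unadjusted. Its shares of all tested peaks were 7.13% higher and 5.54% lower, and 13.7% and 13.1% unadjusted. DESeq2 called 0, with 5 higher and 0 lower unadjusted, where its shares of all tested peaks were 3.06% higher and 1.49% lower, and 9.74% and 7.91% unadjusted. The median log2 change over the 19 peaks was 0.30, beside 0.10 for the whole set of tested peaks. These 5 peaks also have an FDR under 0.05 in the authors' deposited table, which was made from the same values.

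The single call inside Macroh2a1 was 26.2 kb after the start (chr13:56109237-56109437). Values were 50.1, 49.0, 44.0 and 35.3 in the control libraries and 77.3, 72.5, 62.1 and 85.5 in the paused libraries, with no overlap. The peak rose from 44.6 ± 6.76 to 74.4 ± 9.79 (SD, n = 4), a log2 change of 0.73 with SE 0.16 (limma-trend adjusted p = 0.00216), or 0.63 above the median change of all peaks. The call was lost in DESeq2, with an adjusted p of 0.0582, and kept in the other alternatives, where the lowest change was 0.57. The peak lies outside the long non-coding RNA gene Gm31485, which is inside Macroh2a1 (chr13:56110546-56121107).

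Other peaks inside Macroh2a1 did not pass. Within Gm31485, the peak at 22.8 kb (chr13:56112605-56112805) had means of 69.3 ± 8.86 and 70.9 ± 9.50 (SD, n = 4), a log2 change of 0.03 whose sign turned under TMM, DESeq2, total-read and loess scaling. The peak at 19.5 kb (chr13:56115931-56116131) had means of 46.0 ± 7.13 and 60.9 ± 13.2 (SD, n = 4; limma-trend adjusted p = 0.134). The called peak at 26.2 kb and the pair inside Gm31485 had log2 changes of different size, from 0.03 to 0.73, though the difference between peaks was not tested. At 44.8 kb and 60.1 kb the log2 changes were 0.32 and -0.06 (limma-trend adjusted p = 0.451 and 0.904), and the latter turned sign without paused replicate 1. At 9.8 kb and 4.9 kb they were 0.25 and 0.26 (limma-trend adjusted p = 0.504 and 0.510). The 2 peaks under the filter, at 30.6 kb and 107.7 kb, had mean values of 9.81 and 9.31 and were not tested.

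Outside Macroh2a1, 3 calls lay beyond the 3′ end of the gene, 63.2 kb, 69.2 kb and 82.7 kb from the start site. The peak nearest to the gene (chr13:56072232-56072432), 1290 bp past its end, had values of 38.7, 33.4, 25.4 and 32.3 in control and 46.1, 66.2, 49.6 and 57.4 in paused libraries. It rose by a log2 change of 0.74 with SE 0.19 (limma-trend adjusted p = 0.00568), and its groups did not overlap. The next (chr13:56066213-56066413) rose from 57.3 ± 3.78 to 81.4 ± 13.6 and the farthest (chr13:56052767-56052967) from 48.1 ± 6.95 to 70.3 ± 12.6 (SD, n = 4; limma-trend adjusted p = 0.0278 and 0.0264). The groups overlapped at the farthest peak and not at the other two. For all 3 the nearest gene end is that of Macroh2a1, and no other protein-coding gene lies on that side within 50 kb. Not all 3 calls held under other settings. Of the 5 calls around Macroh2a1, edgeR and loess scaling each kept 3, including those 26.2 kb after and 5.7 kb before the start. Total-read scaling kept 2, including that at 26.2 kb, and DESeq2 kept 0.

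The called peak upstream of Macroh2a1, 5.7 kb before the start (chr13:56141112-56141312), had values of 19.0, 16.7, 13.6 and 23.5 in control and 38.1, 42.6, 18.6 and 46.9 in paused libraries. Paused replicate 3 lay below control replicates 1 and 4, so the groups overlapped. The peak rose from 18.2 ± 4.19 to 36.5 ± 12.5 (SD, n = 4), a log2 change of 0.92 with SE 0.26 (limma-trend adjusted p = 0.0131), and the call was lost without paused replicate 2 or 4, in DESeq2 and with total-read scaling (adjusted p from 0.0525 to 0.0792). The strongest peak of the window lay 7.8 kb before the start (chr13:56143245-56143445). Its values were 234, 233, 313 and 310 in control and 287, 352, 362 and 333 in paused libraries, and it did not pass (a difference in log2 of 0.30, SE 0.11, adjusted p = 0.0734 in limma-trend).

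**Figure D3:**
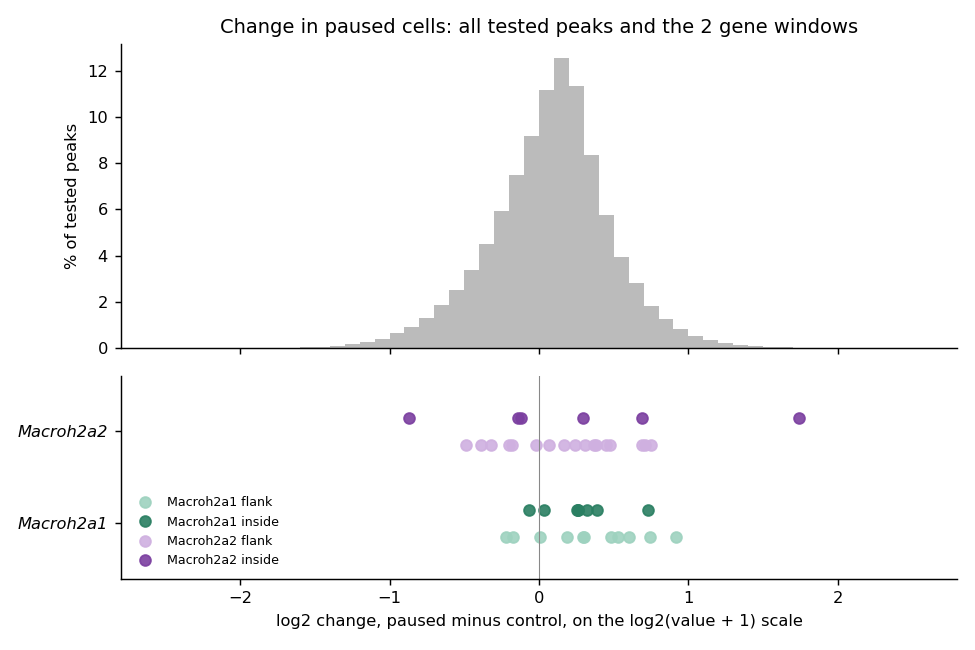
The upper panel gives the share of all tested peaks (%) by log2 change, paused minus control on the log2(value + 1) scale, in steps of 0.1. The lower panel gives the tested peaks inside and in the flanks of the 2 genes, with Macroh2a2 reaching from -0.87 to 1.74 and Macroh2a1 from -0.22 to 0.92.

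Summed over the peaks inside each gene, values were higher in the paused libraries for both genes. Macroh2a2 was chosen for a large rise at a peak inside it. How its sum is made up is therefore a description and is not set against Macroh2a1. Inside Macroh2a2 the 6 peaks summed to 238, 226, 183 and 206 in control and 307, 270, 261 and 319 in paused libraries. The 33.6 kb peak gave 81.3% of the difference between the means, and without it the sums were 186 ± 16.5 and 200.2 ± 28.2 (SD, n = 4) and overlapped. Inside Macroh2a1 the 9 peaks summed to 359, 401, 342 and 317 in control and 483, 409, 411 and 430 in paused libraries. The means were 355 ± 35.3 and 433 ± 34.7 (SD, n = 4), 22.1% more, beside 11.5% more for the sum over all peaks (exact two-sided permutation test of the log2 Macroh2a1 sums, p = 0.0286, the smallest that 70 arrangements allow). The sum over all peaks was also higher in every paused library (8.06e+06 or more) than in every control library (7.65e+06 or less). The test is against no change, so it does not set Macroh2a1 apart from that rise over all peaks. The test no longer passed with TMM factors (exact permutation p = 0.143), scaled to total reads in peaks (exact permutation p = 0.314) or without the 26.2 kb peak (exact permutation p = 0.114), nor with any of the 4 paused libraries left out (exact permutation p = 0.0571 for each). That peak gave 38.0% of the Macroh2a1 difference.

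**Figure D4:**
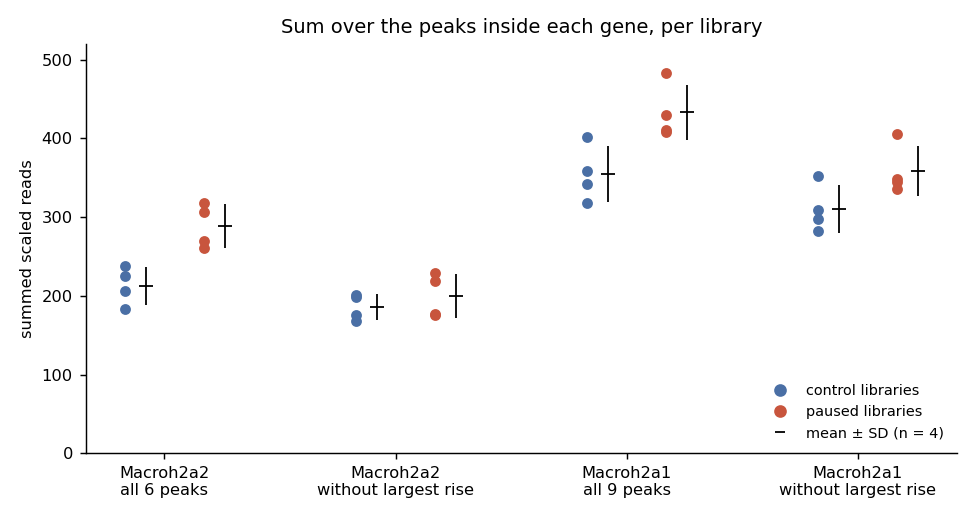
Sum of the scaled reads over the peaks inside each gene in every library (points) with the mean and SD of 4 libraries (black), with all peaks and without the peak of largest rise. Without the 33.6 kb peak the Macroh2a2 sums of the groups overlap.

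The choice of a 50 kb limit left out peaks just beyond it. On the 3′ side of Macroh2a2 the last peak inside the limit, 44719 bp from the gene, had a mean value of 20.5, and the first outside, at 58393 bp and nearest to Sar1a, one of 267. On its 5′ side these were 68.8 at 49880 bp and 73.3 at 54354 bp, both nearest to Col13a1. For Macroh2a1 they were 9.31 at 45740 bp and 22.3 at 62983 bp on the 3′ side, and 16.4 at 32052 bp and 43.1 at 58701 bp on the 5′ side.

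The peaks whose values over the 8 libraries most resembled the leading peak of each gene were sought among peaks of at least median strength more than 1 Mb away. For the 33.6 kb peak of Macroh2a2 the 5 closest, with Pearson r from 0.993 to 0.995 over 8 libraries, were nearest to Trpm1, Hmgb4, Paqr7, Spry1 and Trim47. For the 26.2 kb peak of Macroh2a1 they were nearest to Grik3, Prdm1, Ash2l, Erc2 and Gm281, with r from 0.987 to 0.998. These are the best of 67052 and 67092 peaks that share the same libraries and scaling, and the values are descriptive.

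Genes linked to macroH2A by class or role were then counted through the peaks whose nearest gene end, within 50 kb, was theirs. Of 29 genes listed, 27 had at least 1 peak, and 167 of their 174 peaks were tested. Of these, 13 were called higher and 8 lower, 12.6% beside 13.9% of all tested peaks, and their median log2 change was 0.10, as was that of all tested peaks. In the main limma-trend fit, 13958 of all tested peaks were called higher and 3702 lower. The balance in the list turned with the scaling. edgeR with TMM called 4 higher and 12 lower, beside 9084 and 7058 of all tested peaks. Total-read scaling gave 2 and 12, beside 5743 and 6827, and loess scaling 2 and 8, beside 6497 and 4459. DESeq2 called 2 and 2, beside 3902 and 1892. Without control replicate 1 or without paused replicate 4 the number of calls was 9.

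Among histone variant genes (H2ax, H2az1, H2az2, H3f3a, H3f3b and Cenpa), 4 of 33 tested peaks were called higher and 0 lower in limma-trend (12.1%, beside 11.0% higher and 2.91% lower of all tested peaks), with a median of 0.21. Unadjusted, 11 were higher and 0 lower, beside 21.1% and 7.61% of all. edgeR called 1 higher and 0 lower (6 and 2 unadjusted, beside 13.7% and 13.1% of all). DESeq2 called 0, with 3 higher and 0 lower unadjusted (beside 9.74% and 7.91% of all). The smallest adjusted p belonged to the peak 46 bp from an end of H2az2, which encodes a form of H2A.Z, the variant placed around gene starts (chr11:6444457-6444657). Its values were 382, 417, 393 and 398 in control and 434, 521, 548 and 517 in paused libraries, a rise of 0.34 with SE 0.10 and no overlap (limma-trend adjusted p = 0.0183). The call was lost under TMM, DESeq2, total-read and loess scaling, with adjusted p from 0.109 to 0.331, and without paused replicate 2, 3 or 4.

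Among 13 chaperone and remodeller genes, 5 of 88 tested peaks were called higher and 6 lower in limma-trend, with a median of 0.05. That is 12.5%, beside 13.9% of all tested peaks (11.0% higher and 2.91% lower). edgeR called 1 higher and 9 lower, with a median of -0.03, beside 7.13% and 5.54% of all. DESeq2 called 0 of them, beside 3.06% and 1.49% of all. Unadjusted, DESeq2 had 3 higher and 12 lower, beside 9.74% and 7.91% of all. Nap1l1, a chaperone of H2A and H2B, held 4 of the 6 lower calls, all at weak peaks with control means from 17.3 to 23.9, and the higher call with the smallest adjusted p. That peak, 39190 bp from an end of Nap1l1 (chr10:111433592-111433792), rose from 61.6 ± 5.71 to 91.7 ± 13.9 (SD, n = 4), by 0.56 in log2 with SE 0.15 (adjusted p = 0.00897, limma-trend). It lost its call in DESeq2 and with total-read or loess scaling (adjusted p from 0.0764 to 0.141). Ssrp1 and Supt16, the subunits of the FACT chaperone, had the other lower calls, 1 each.

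Among genes of ADP-ribose metabolism, 4 of 34 tested peaks were called higher and 1 lower in limma-trend, with a median of 0.06. That is 14.7%, beside 13.9% of all tested peaks (11.0% higher and 2.91% lower). In edgeR 2 were called higher and 2 lower, with a median of -0.10, beside 7.13% and 5.54% of all. In DESeq2 2 were called higher and 1 lower, with a median of -0.07, beside 3.06% and 1.49% of all. The peak 748 bp from an end of Macrod2, a macrodomain enzyme that removes ADP-ribose from proteins (chr2:142393614-142393814), had values of 29.4, 27.5, 22.0 and 42.6 in control and 43.8, 72.5, 54.3 and 79.7 in paused libraries. It rose by a log2 change of 1.02 with SE 0.20 (limma-trend adjusted p = 0.000592) and kept its call in all 15 alternatives in which it was tested. The stronger peak 46 bp from the other end of Macrod2, with a mean value of 323, changed by 0.15 (limma-trend adjusted p = 0.391). The remaining Macrod2 peaks changed by -0.46 and -0.24 and were not called. Parp1, the main poly(ADP-ribose) polymerase, had 2 of the higher calls, at peaks that rose by 0.58 and 0.37. Macrod1 had 1 higher call and the lower one, where a weak peak fell from 17.8 ± 5.00 to 4.19 ± 1.85 (SD, n = 4).

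Among the splicing regulators, for which Ddx5, Ddx17 and Mbnl1 had peaks, 0 of 12 tested peaks were called higher and 1 lower in limma-trend, with 2 higher and 1 lower unadjusted. Of all tested peaks, limma-trend called 11.0% higher and 2.91% lower, with 21.1% and 7.61% unadjusted. edgeR and DESeq2 also called 0 higher and 1 lower, with 0 and 1 unadjusted in each. The shares of all tested peaks were 7.13% higher and 5.54% lower in edgeR, and 13.7% and 13.1% unadjusted. In DESeq2 they were 3.06% and 1.49%, and 9.74% and 7.91% unadjusted. The lower call, 11978 bp from an end of Mbnl1 (chr3:60617672-60617872), fell from 113 ± 21.4 to 81.8 ± 13.3 (SD, n = 4), a difference in log2 of -0.46 with SE 0.15 (adjusted p = 0.0293, limma-trend). Its groups overlapped, and the call was lost without control replicate 2 or 4 or paused replicate 1, 2 or 4.

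**Figure D5:**
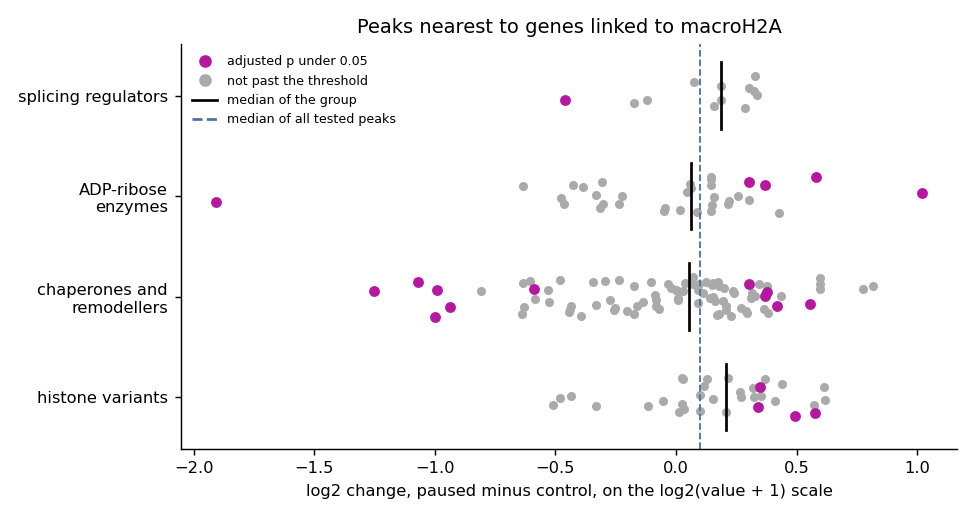
Log2 change (paused minus control, log2(value + 1) scale) of each tested peak nearest to a gene linked to macroH2A, by role; vertical positions within a role are spread at random. Purple points passed an adjusted p of 0.05, black lines are medians of the group, from 0.05 to 0.21 (those of the chaperone and ADP-ribose groups were negative in edgeR and DESeq2), and the dashed line is the median of all tested peaks, 0.10.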

How the data were processed

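ATAC-seq values came from 1 deposited table of 134407 peaks of 201 bp. The submitters' processing notes name FastQC, Trim Galore, Bowtie2 2.4.1, MACS3 3.0.3 and DiffBind 3.16.0 with the build mm10; their settings, and whether peaks were called per sample or pooled, are not given in the sources used here. The deposited signal per library is reads per peak divided by 1 factor per library, which keeps a difference in total signal between libraries. Whole reads could be recovered from it for 99.8% to 100% of values (tolerance 0.0051). The authors' table also holds log2 concentrations and folds and p-values with an FDR. The authors' scale is therefore not the same as a scale set on total reads.

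The 127402 peaks whose mean value reached 10 were fitted with limma-trend (limma 3.58.1, R 4.3.3) on log2(value + 1), 4 control against 4 paused libraries, with Benjamini-Hochberg adjustment over all of them and a threshold of 0.05. Log2 changes are on the log2(value + 1) scale, paused minus control, and understate changes of weak peaks. The fit was tested on simulated data. Sums were compared by an exact permutation test. Alternatives were a pseudocount of 0.1, no filter, at least 50 reads, edgeR 4.0.16 (TMM) and DESeq2 1.42.0 on the recovered reads, total-read and loess scaling, a threshold of 0.01, a replicate block and leaving out each library. A sum without its leading peak was added after seeing the data.

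Named were, for each gene, the strongest peak within 1 kb of each gene end, the 3 strongest, 3 largest rises and 3 largest falls inside the gene, every call inside, and the largest call in the flanks; for each list group, the peak with the smallest adjusted p. Other peaks with values were chosen after their values were seen. The genes and lists were chosen with earlier results of these data known. Reads in peaks set the precision: 3 reads are a value of 1.04 in control replicate 1 and 5.08 in control replicate 3. No per-sample column was left unused.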

Additional observations from a re-analysis of the deposited data

Results flagged for a closer look

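In each group of 4 libraries, the highest or lowest value was set against the range of its group; 4 of 42 groups examined had a library past the 95% limit of Dixon's test, where chance gives about 1 in 20. At the start-site peak of Macroh2a1, paused replicate 1 had a value of 154.58, and the other paused libraries 109 to 114. At the weak peak 26.9 kb inside Macroh2a2, paused replicate 1 had 16.15, and the others 9.31 to 9.46. At the peak 9.3 kb upstream of Macroh2a2, paused replicate 4 had 65.61, and the others 33.5 to 38.8. Control replicate 1 had 21161767 reads in peaks, and the other control libraries 4434037 to 6262445.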

How the results depend on the processing

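Of all tested peaks, 17660 were called. With at least 50 reads there were 10487 calls, in DESeq2 5794, with loess scaling 10956, at an adjusted p under 0.01 7697, and 11567 to 15806 with 1 library left out (11567 without paused replicate 4). Around Macroh2a1, 5 calls became 3 with at least 50 reads, 3 in edgeR, 0 in DESeq2, 2 with total-read scaling, 3 with loess scaling, 2 at 0.01 and 1 inside the gene alone; with 1 library left out they were 2 to 6, with 2 without paused replicate 4 and 3 without control replicate 2 or paused replicate 2. Around Macroh2a2, 7 calls became 4 with at least 50 reads, 1 in DESeq2, 3 with total-read scaling, 2 with loess scaling, 2 at 0.01 and 3 inside the gene alone; with 1 library left out they were 3 to 6, with 3 without paused replicate 4 and 4 without control replicate 1. In the partner list, 21 calls became 4 in DESeq2, 10 with loess scaling, 4 at 0.01 and 9 to 20 with 1 library left out: 9 without control replicate 1 or paused replicate 4, 11 without paused replicate 2 and 12 without control replicate 3.

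The log2 change of the Macroh2a1 sum, 0.29, was 0.18 with TMM, 0.13 scaled to total reads and 0.21 without the leading peak, and 0.24 to 0.35 with 1 library left out, where the exact permutation p was 0.0286 when a control library was left out and 0.0571 when a paused library was. That of the Macroh2a2 sum, 0.44, was 0.28 scaled to total reads, 0.10 without the leading peak and 0.37 to 0.50 with 1 library left out. Signs turned at 3 named peaks with changes near 0. At 22.8 kb in Macroh2a1 the change was -0.13 in edgeR, -0.11 in DESeq2, -0.12 with total-read and -0.14 with loess scaling, -0.039 without control replicate 3 and -0.050 without paused replicate 3 (-0.050 to 0.096 with 1 library left out). At 60.1 kb it was 0.071 without paused replicate 1 (-0.18 to 0.071 with 1 library left out). At 41.7 kb in Macroh2a2 it was 0.0022 with loess scaling and 0.0017 without control replicate 1 (-0.29 to 0.0017 with 1 library left out). The 33.6 kb peak of Macroh2a2 kept its direction in the 16 alternatives run, from 1.40 to 1.93. Those alternatives reuse the libraries whose values led to the choice of Macroh2a2, so they add no support for that rise. The causes of the shifts between settings were not tested.

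The replicate numbers are shared between groups, but the labels tie them to no shared culture or day. The deviations of same-numbered libraries had r of 0.0790, 0.0358, 0.133 and 0.0395; each control library correlated best with its own number except control replicate 2, which did so with paused replicate 1. With a replicate block 21994 peaks were called, 6 around Macroh2a1, 8 around Macroh2a2 and 29 in the partner list. The sums were compared without the block.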
